A study of Mus musculus with 20 samples.

Results

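The genes described here lie together in the epidermal differentiation complex (EDC) of mouse chromosome 3, and most encode structural proteins of the cornified envelope. All are called envelope genes below, although Smcp encodes a sperm mitochondrial protein. They were taken by symbol: every small proline-rich (Sprr) and late cornified envelope (Lce) gene, together with Lor, Ivl, Flg, Flg2, Hrnr, Rptn, Crnn, Kprp, Crct1, Smcp and Lelp1. Pseudogenes, S100 genes and Tchh were left out. This gave 47 of the 51123 gene identifiers in the count table, namely 15 Sprr genes (11 of them Sprr2), 21 Lce genes (14 Lce1, 6 Lce3 and Lce6a), 5 S100 fused type genes (Flg, Flg2, Hrnr, Rptn and Crnn) and 6 single genes. Levels came from bulk RNA sequencing of tdTomato-positive mouse skin cells sorted by flow cytometry, in 20 libraries of 7 groups.

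Young epidermis, from mice aged 100 to 120 days, was wild type (WT, n = 3), K14cre;Wwox fl/fl (WKO, n = 3), K14cre;p53 fl/fl (PKO, n = 3) or K14cre;Wwox fl/fl;p53 fl/fl (DKO, n = 3). Old epidermis was wild type and came from mice of at least 400 days (n = 2). Spontaneous tumours, cutaneous squamous cell carcinomas (cSCC), came from K14cre;p53 fl/fl mice (PKO cSCC, n = 3) and K14cre;Wwox fl/fl;p53 fl/fl mice (DKO cSCC, n = 3), of no stated age. The K14 promoter drives Cre in keratinocytes of the basal layer and their progeny, and all groups were sorted for tdTomato, although the labels of the wild types name no Cre. The question behind the design is how loss of Wwox, of p53 or of both changes these cells before and after tumours form.

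Total counts were 11930153 to 17199262 a library. Some libraries went against their labels. The library labelled DKO young 3 held 7.34 CPM (counts scaled to library size) of Wwox and 21.1 of Trp53, against at most 0.944 and 3.31 in DKO young 1 and 2. Trp53 stood at 45.5 CPM in the library labelled DKO cSCC 3, against 2.74 and 2.86 in DKO cSCC 1 and 2, and those labelled PKO young 2 and 3 held 21.8 and 19.2 CPM against 5.90 in PKO young 1. Keratinocyte content also varied. The summed level of 20 pan-epithelial genes was 1673 to 3483 CPM in WT young, 11270 to 13597 in WKO young and 14977 to 19455 in DKO young, while 10 markers of T, NK and dendritic epidermal T cells summed to 1922 to 2699, 53.8 to 1051 and 93.5 to 345 CPM in these groups. In bulk samples, fewer cells of a type and less RNA per cell cannot be told apart.

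The cornified envelope is the protein shell that replaces the plasma membrane of a keratinocyte as it dies and joins the outermost layer of the skin. Involucrin (Ivl) is laid down early beneath the membrane, loricrin (Lor) makes up most of the mature envelope, and the Sprr and Lce proteins are cross-linked into it by transglutaminases. Filaggrin (Flg), the best known of the S100 fused type proteins, bundles keratin filaments in the granular layer and is later broken down into water-holding amino acids. Sprr1a, Sprr1b and several Sprr2 genes are known to be induced when epidermis is wounded, inflamed or otherwise stressed.

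Of the 47 genes, 43 had an entry in the RefSeq table of promoters (build GRCm38.p6). Below are the 200 bases before the annotated start of Sprr1a, Sprr1b, Flg, Lor, Sprr2h and Sprr2d, which were picked from the 43. In capitals are 2 motifs: TGANTCA, the AP-1 type motif, and TATAAA, the TATA box. AP-1 is a dimer of Jun and Fos family proteins long known to act on Ivl and Sprr promoters. The stretches lie at chr3:92485882-92486081, minus strand for Sprr1a, chr3:92438780-92438979, minus strand for Sprr1b, chr3:93273346-93273545, plus strand for Flg, chr3:92083143-92083342, minus strand for Lor, chr3:92385485-92385684, plus strand for Sprr2h, chr3:92338940-92339139, plus strand for Sprr2d.
Sprr1a: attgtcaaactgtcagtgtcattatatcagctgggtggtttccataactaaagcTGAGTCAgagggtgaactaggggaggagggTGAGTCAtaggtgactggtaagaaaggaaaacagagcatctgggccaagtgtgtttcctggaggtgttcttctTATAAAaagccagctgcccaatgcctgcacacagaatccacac
Sprr1b: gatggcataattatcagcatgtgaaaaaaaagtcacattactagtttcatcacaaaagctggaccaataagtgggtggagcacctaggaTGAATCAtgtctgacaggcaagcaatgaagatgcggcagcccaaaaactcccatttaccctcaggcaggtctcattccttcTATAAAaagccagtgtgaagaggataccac
Flg: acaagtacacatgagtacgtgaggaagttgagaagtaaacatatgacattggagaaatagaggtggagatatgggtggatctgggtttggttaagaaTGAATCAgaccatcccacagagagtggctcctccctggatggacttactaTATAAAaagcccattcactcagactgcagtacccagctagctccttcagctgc
Lor: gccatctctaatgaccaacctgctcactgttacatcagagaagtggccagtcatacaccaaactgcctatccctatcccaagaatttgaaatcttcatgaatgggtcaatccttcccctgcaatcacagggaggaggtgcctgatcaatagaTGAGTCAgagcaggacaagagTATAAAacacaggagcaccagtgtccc
Sprr2h: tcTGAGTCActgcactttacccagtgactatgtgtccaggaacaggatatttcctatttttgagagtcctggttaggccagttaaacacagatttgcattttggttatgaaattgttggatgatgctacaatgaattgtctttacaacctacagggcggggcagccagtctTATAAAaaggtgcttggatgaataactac
Sprr2d: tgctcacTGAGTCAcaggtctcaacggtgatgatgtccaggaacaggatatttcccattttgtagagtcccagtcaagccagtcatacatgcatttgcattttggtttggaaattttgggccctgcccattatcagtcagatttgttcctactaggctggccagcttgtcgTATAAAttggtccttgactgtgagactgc
In these 200 bases Sprr1a held 2 AP-1 type motifs and the other 5 genes 1 each.

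Read on both strands, TGANTCA was found before 9 of 14 Sprr genes (64.3%), 15 of all 43 envelope genes (34.9%) and 0 of 20 Lce genes, and before 1500 of 27025 promoters in the table (5.55%). Most Sprr matches were in Sprr2 genes, some of whose stretches are near copies, so the matches are not independent. Base by base, Sprr2d was identical to Sprr2e at 92%, to Sprr2i at 79.5% and to Sprr2f at 35%, and Sprr2h to Sprr2k at 72%. TATAAA was found before 71.4% of the Sprr genes, 10% of the Lce genes and 10.6% of all promoters. The motif CACCC, which KLF factors bind, was found before 41.9% of the envelope genes and 44.9% of all promoters. Counted from the start, TGANTCA lay at -116 to -110 before Sprr1a (nearer copy) and Ivl and at -111 to -105 before Sprr1b, but at -198 to -192 before Sprr2h and -193 to -187 before Sprr2d. The stretches before Sprr2a1 and Sprr2a2 were identical at all 200 bases and held no TGANTCA. That before Sprr2a3, largely the same sequence at a shifted position, held none either. These stretches also lacked TATAAA, which the other Sprr2 stretches held, and whether their annotated starts are well placed was not tested. These Sprr2a genes were called higher in DKO than in WT young, as given below. The printed stretches therefore do not stand for all called genes. A match describes letters and was not tested as a binding site.

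**Figure D1:**
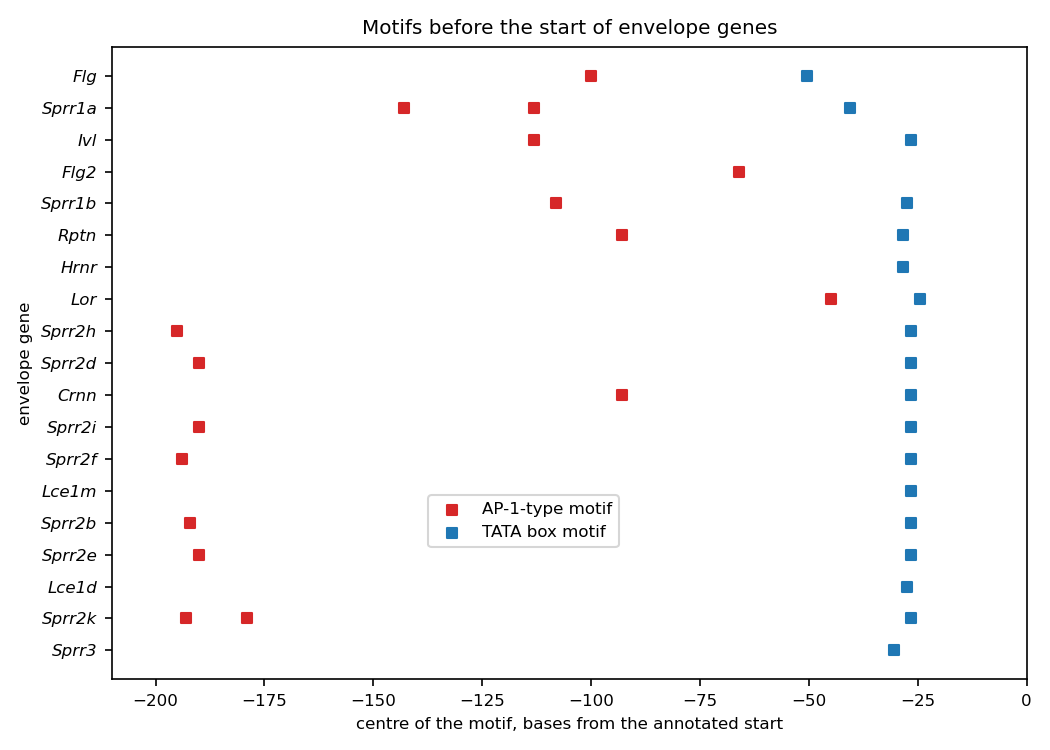
Position of the AP-1 type motif (TGANTCA, red) and the TATA box motif (TATAAA, blue) in the 200 bases before the annotated start. Each row is an envelope gene with at least 1 match, the horizontal axis gives the centre of the motif in bases from the start, and the Sprr2 genes hold the AP-1 type motif farther out than Sprr1a, Sprr1b, Ivl or Flg.

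Levels of the envelope genes were low in most libraries. Summed over the 47 genes they came to 32.1 to 57.9 CPM in WT young, 35.6 to 70.4 in WKO young, 30.8 to 364 in PKO young, 292 to 827 in DKO young, 38.5 and 20 in old WT, 31.3 to 274 in PKO cSCC and 91.7 to 5220 in DKO cSCC. No gene was at 0 in all libraries, 9 had fewer than 10 counts in all, and 24 passed the low-count filter over the 20 libraries. Per kilobase of exon, the mean level over the 20 libraries was highest for Sprr1a at 94.8 CPM per kb, followed by Flg at 13.7, Sprr1b at 10.7 and Ivl at 10.2, while Lor was at 1.94 and Flg2 at 0.587. The place of Flg rests on the library labelled DKO cSCC 3. Without it, over 19 libraries, Flg was at 1.10 CPM per kb and Lor at 0.785, beside 94.9 for Sprr1a, 10.5 for Sprr1b and 9.11 for Ivl. Lor, the most abundant protein of a mature envelope, was thus below Ivl and Sprr1a in these sorted cells on the per-length scale.

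**Figure D2:**
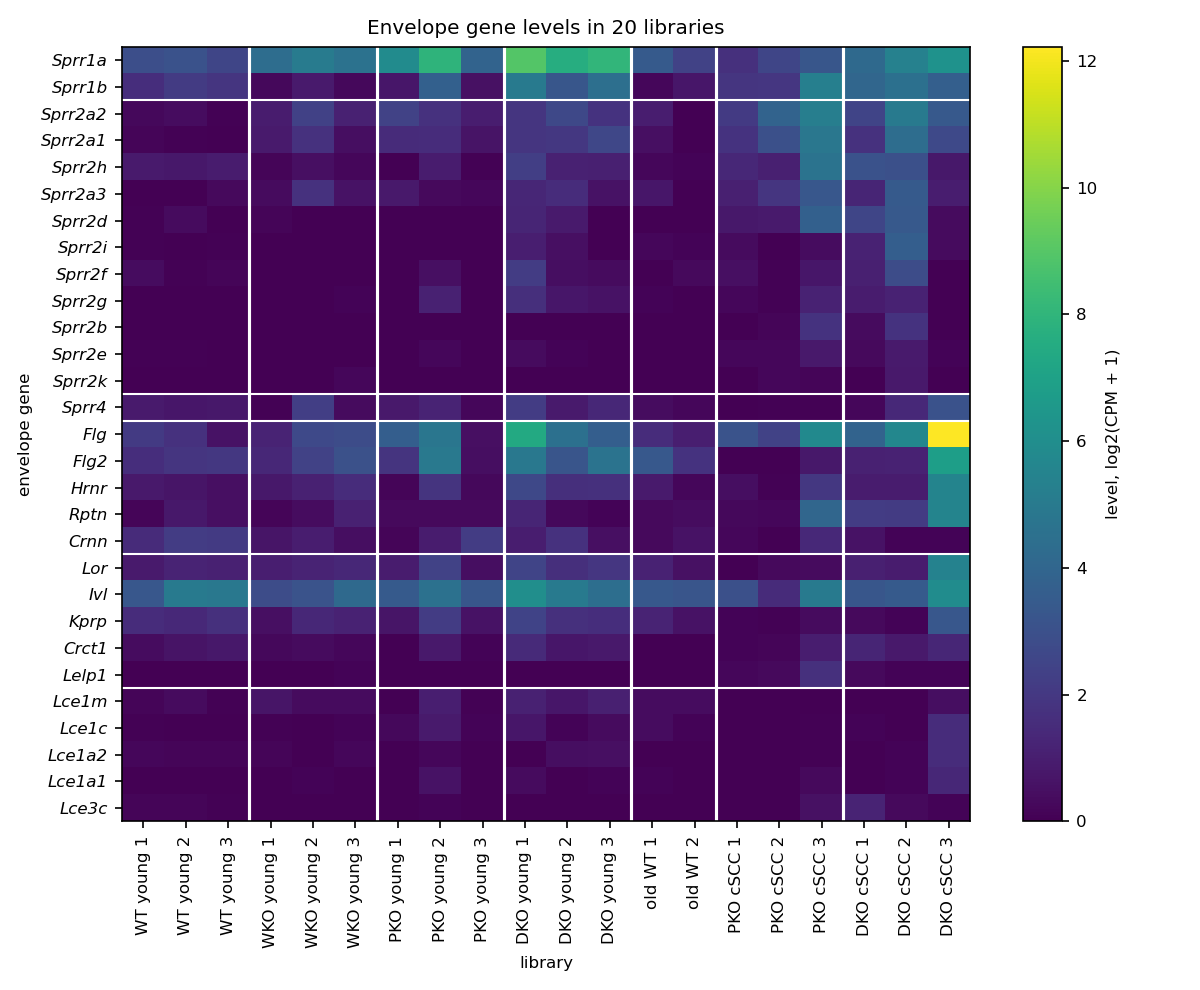
Level of 29 of the 47 envelope genes (rows) in each of the 20 libraries (columns), as log2(CPM + 1); white lines part groups and gene families, and the genes not drawn had 29 counts or fewer in all. Sprr1a is brightest across DKO young, Sprr2a1, Sprr2a2, Sprr2h and Sprr2d reach their highest levels in cSCC libraries, and the library labelled DKO cSCC 3 alone holds Flg at 4773 CPM with the highest levels of Flg2, Hrnr, Rptn and Lor.

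In young epidermis the envelope genes that were higher in DKO than in WT were Sprr1a, Sprr2a1, Sprr2a2, Sprr2a3 and Flg. Sprr1a, a cross-bridging protein of the envelope, stood at 6.71, 7.56 and 4.91 CPM in the 3 WT libraries, 19.9, 33.0 and 23.7 in WKO, 57.9, 248 and 13.8 in PKO, and 490.2, 197 and 262 in DKO. The DKO libraries lay above all WT and WKO libraries, and the PKO libraries overlapped both WKO and DKO. The log2 fold change of DKO against WT was 5.62 (SE 0.93, adjusted p = 0.00619; edgeR's quasi-likelihood test with Benjamini-Hochberg adjustment, which is the test behind every adjusted p here). The fold changes of PKO (4.05, SE 0.86, adjusted p = 0.0539) and of WKO against WT (1.99, SE 0.80, adjusted p = 0.0948) missed the threshold of 0.05.

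Sprr1b, a close relative of Sprr1a with no 31-base stretch shared with any other gene, had another pattern. It stood at 2.07, 3.34 and 2.71 CPM in WT, 0.204, 0.821 and 0.214 in WKO, 0.677, 12.4 and 0.478 in PKO, and 32.0, 8.49 and 21.2 in DKO. The WKO libraries lay below the WT libraries, and the DKO libraries above them. Neither difference was called (log2 fold change -2.69, SE 1.18, adjusted p = 0.121 for WKO, and 2.92, SE 1.09, adjusted p = 0.0682 for DKO against WT). Sprr1a and Sprr1b thus differed in direction in WKO by their fitted values, a difference between genes that was not tested.

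The Sprr2 genes encode short envelope proteins with proline-rich repeats, and Sprr2a1, Sprr2a2 and Sprr2a3 are near-identical copies. In the GENCODE annotation 96.9%, 97.8% and 73.6% of their 31-base stretches occur in another gene, so how the estimated counts were split among them is uncertain and they are read as a set. Sprr2a1 stood at 0.109, 0.0681 and 0 CPM in WT (2, 1 and 0 counts), 0.817, 2.33 and 0.357 in WKO, 1.85, 1.93 and 0.574 in PKO, and 2.71, 2.98 and 5.06 in DKO. Sprr2a2 stood at 0.0564 to 0.340 CPM in WT, 0.885 to 4.17 in WKO, 0.957 to 4.37 in PKO and 2.48 to 5.23 in DKO. For both genes every library of each knockout genotype lay above every WT library.

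Sprr2a1 and Sprr2a2 were called in WKO against WT (log2 fold change 4.12, SE 0.97, adjusted p = 0.0187, and 3.30, SE 0.86, adjusted p = 0.0260) and in DKO against WT (5.72, SE 0.99, adjusted p = 0.00642, and 4.05, SE 0.88, adjusted p = 0.0110). In PKO against WT they were not (4.42, SE 0.97, adjusted p = 0.0539, and 3.61, SE 0.87, adjusted p = 0.0565). Sprr2a3 was at 0, 0 and 0.226 CPM in WT and 1.46, 1.89 and 0.496 in DKO, a called difference (3.92, SE 1.30, adjusted p = 0.0467). It rested on 4 counts in WT, and the call was lost without WT young 1, WT young 2, DKO young 1 or DKO young 2 (adjusted p = 0.109 to 0.125).

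The other Sprr2 genes did not share the pattern of the Sprr2a copies. Sprr2h, which shares only 3% of its 31-base stretches with other genes, stood at 0.819, 0.749 and 0.903 CPM in WT, 0.136, 0.411 and 0.143 in WKO, 0, 0.925 and 0.0478 in PKO, and 3.77, 1.16 and 1.09 in DKO. Its WKO libraries lay below and its DKO libraries above those of WT, as for Sprr1b, and neither difference was called (adjusted p = 0.266 and 0.382). Sprr2g was at 0 counts in WT and 46 in DKO in all, and it did not pass the filter. Sprr2b had no count in any epidermis library, young or old.

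Among the S100 fused type genes, Flg stood at 3.17, 2.31 and 0.508 CPM in WT, 1.36, 5.41 and 6.14 in WKO, 11.6, 26.7 and 0.431 in PKO, and 169, 21.8 and 11.6 in DKO. The DKO libraries lay above those of WT and WKO, and PKO young 3 held the lowest level of the 12. Flg was called in DKO against WT (5.07, SE 1.46, adjusted p = 0.0289), and the call was lost without any WT library or without DKO young 1 (adjusted p = 0.0641 to 0.13). Flg2, a filaggrin-like barrier protein, was at 2.02, 2.66 and 2.99 CPM in WT and 28.4, 8.35 and 24.3 in DKO (2.98, SE 1.19, adjusted p = 0.0860). Hrnr (hornerin) was at 0.395 to 0.764 CPM in WT and 2.11 to 5.23 in DKO (2.42, SE 0.97, adjusted p = 0.0871). Both sets of DKO libraries lay above the WT libraries without a call. Flg2 stood at 1.57, 4.24 and 7.28 CPM in WKO and 2.58, 29.8 and 0.383 in PKO, so that PKO young 2 lay above every DKO library. Hrnr stood at 0.749, 1.16 and 1.93 CPM in WKO and 0.123, 2.52 and 0.191 in PKO. Rptn (repetin) stayed between 0.0993 and 1.39 CPM in all 12 young libraries.

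Crnn (cornulin) was the tested envelope gene with a negative fold change in all 3 comparisons with WT. It stood at 1.80, 3.54 and 3.16 CPM in WT, 0.613, 0.958 and 0.357 in WKO, 0.123, 0.925 and 3.49 in PKO, and 0.992, 2.40 and 0.397 in DKO (-2.13, SE 0.97, adjusted p = 0.132 for WKO against WT). Its WKO libraries lay below those of WT, whereas PKO and DKO overlapped WT.

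Ivl and Lor, the markers most used for the envelope, were not called in any young genotype. Ivl stood at 9.0, 30.8 and 28.7 CPM in WT, 6.19, 7.80 and 17.3 in WKO, 9.90, 22.4 and 8.66 in PKO, and 64.0, 30.9 and 20.5 in DKO. Each knockout group overlapped WT, whereas all WKO libraries lay below all DKO libraries. The log2 fold changes against WT were -1.13 (SE 0.61, adjusted p = 0.198) in WKO, -0.75 (SE 0.61, adjusted p = 0.464) in PKO and 0.75 (SE 0.60, adjusted p = 0.370) in DKO. Lor was at 0.819, 1.29 and 1.18 CPM in WT and 4.63, 2.11 and 2.78 in DKO (1.52, SE 0.73, adjusted p = 0.144), and Kprp at 1.63 to 2.20 and 1.99 to 4.43 CPM. Lor in the DKO libraries lay above WT, and Kprp overlapped. In WKO Lor was at 1.02, 1.30 and 1.57 CPM, and in PKO at 0.923, 4.29 and 0.383, with PKO young 2 above DKO young 2 and 3.

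**Figure D3:**
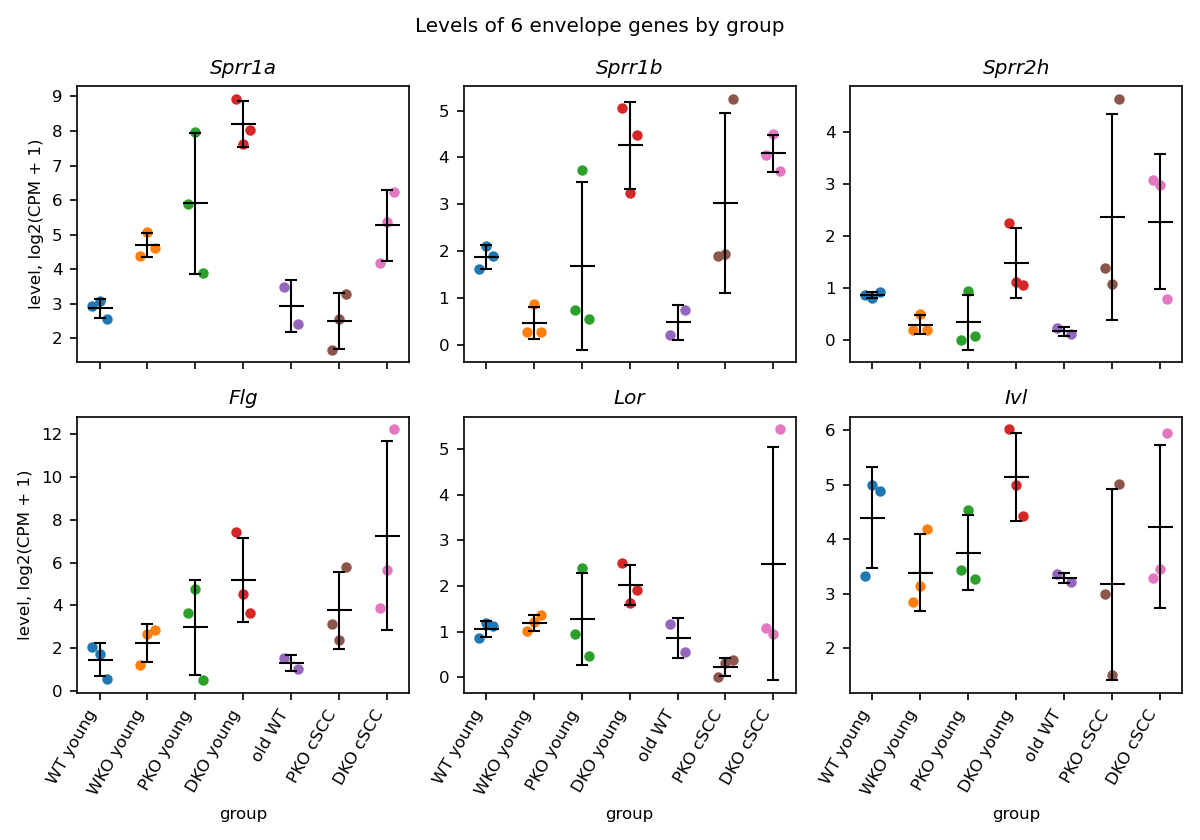
Level of 6 envelope genes, as log2(CPM + 1), by group; points are libraries, the horizontal bar is the group mean and the error bar 1 SD (n = 3, or 2 for old WT). Sprr1a peaks in DKO young, Sprr1b and Sprr2h lie lowest in WKO young, PKO young or old WT libraries, and the library labelled DKO cSCC 3 sets the spread of Flg and Lor.

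Counted over the 16 envelope genes that passed the filter, 5 were called higher in DKO against WT and none lower, a share of 31.2%, beside 27.8% of all 16627 genes called in either direction and 15.8% called higher. The median log2 fold change of the 16 was 2.56 against -0.04 for all genes, and 15 of 16 were positive. The pan-epithelial genes were all positive too, from 0.05 (St14) to 3.42 (Sfn), so a rise in DKO was not particular to the envelope genes. In WKO against WT 2 of 16 were called, both higher, beside 21.4% of all genes (13.1% higher), and the median was 0.83 against -0.03. In PKO against WT 0 of 16 were called, beside 0.00601% of all genes, 3 had an unadjusted p under 0.05, all with positive fold changes, and DESeq2 and limma voom each called 3, beside 11.7% and 11.3% of all genes. The 4 comparisons of young epidermis share a fit, and those with WT share its libraries. The WKO share of 12.5% lay below that of all genes, so the WKO count is no result about the envelope genes as a set. The DKO share lay near that of all genes called in either direction and above that called higher, a difference that was not tested.

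The counts depended on which libraries were kept. Without the libraries that went against their labels, 12 of 21 tested envelope genes were called higher in DKO against WT, beside 29.4% of all genes, with Sprr1a at a log2 fold change of 5.75 (adjusted p = 0.00024), and Sprr1b, Hrnr, Flg2, Lor, Sprr2g, Sprr2i and Lce1m joined the 5. In the same setting 5 were called in WKO against WT (Sprr1a, Sprr2a1 and Sprr2a2 higher, Sprr1b and Crnn lower, background 26.7%) and 4 in PKO against WT (Sprr1a, Sprr2a1 and Sprr2a2 higher, Crnn lower, background 6.99%). PKO then holds only PKO young 1, which the fit assumes to vary like the other groups. Without PKO young 3 alone, the PKO library lowest in Sprr1a, Sprr1a, Sprr2a1 and Sprr2a2 were called in PKO (background 17.4%). The WKO calls fell to 0 without WT young 2 or WKO young 2 and to 1 without WT young 1 or WKO young 3, and the DKO calls to 3 without WT young 1, WT young 2 or DKO young 1.

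**Figure D4:**
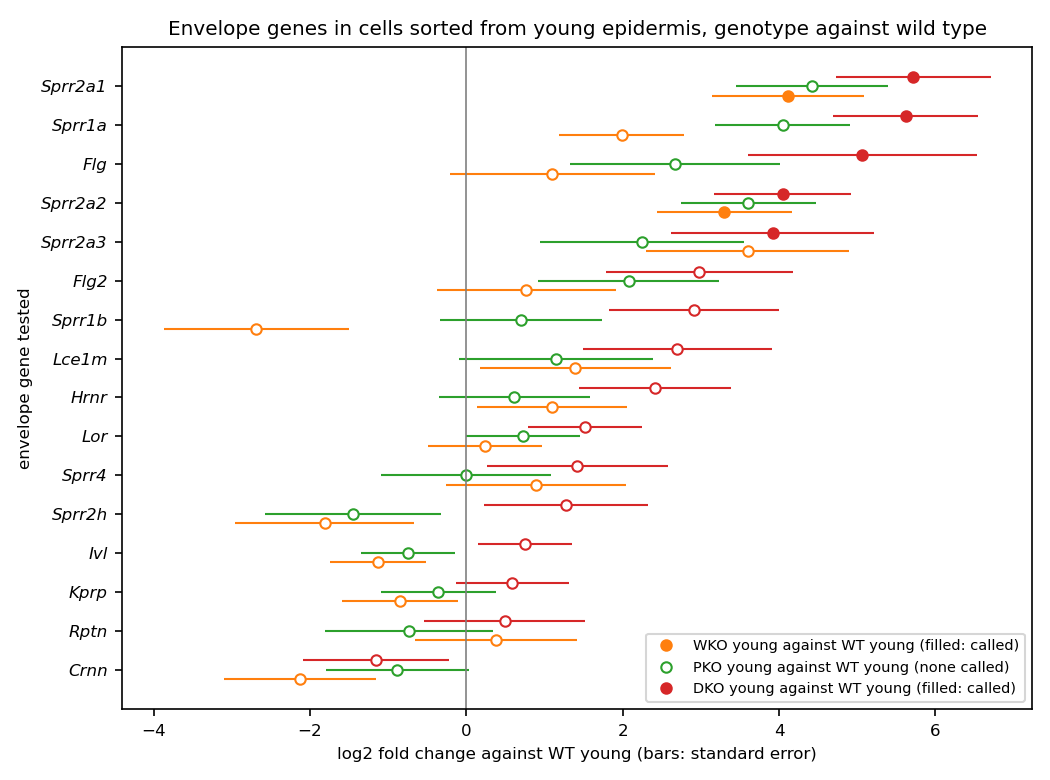
Log2 fold change against WT young (horizontal axis, bars 1 SE) of the 16 tested envelope genes in WKO (orange), PKO (green) and DKO (red) young epidermis; filled points are called at an adjusted p under 0.05. The DKO points of Sprr1a, Sprr2a1, Sprr2a2, Sprr2a3 and Flg and the WKO points of Sprr2a1 and Sprr2a2 are filled.

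DKO was also set beside PKO, which asks what loss of Wwox adds where p53 is lost. None of 16 envelope genes was called by edgeR (0% of all genes were), 2 had an unadjusted p under 0.05, and DESeq2 and limma voom called 0. Log2 fold changes were 1.57 for Sprr1a (SE 0.77, adjusted p = 0.325), 2.40 for Flg (SE 1.3, adjusted p = 0.349) and 1.5 for Ivl (SE 0.61, adjusted p = 0.281), and 15 of 16 were positive. Leaving out single libraries kept the count at 0 with 1 exception. PKO young 2 was the PKO library nearest DKO, with Sprr1a at 248 and Sprr1b at 12.4 CPM, so that leaving it out had to widen the difference. Without it 4 of 18 were called higher, beside 2.33% of all genes. They were Sprr1b (5.13, adjusted p = 0.0301), Hrnr (4.26, adjusted p = 0.0331), Sprr2h (5.88, adjusted p = 0.0373) and Sprr1a (3.13, adjusted p = 0.0430). These calls show how far the count hangs on PKO young 2, which by its Trp53 level also went against its label. Whether they reflect loss of Wwox was not tested.

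Whether the Wwox effect differed with and without p53 was tested as an interaction within young epidermis. None of 16 envelope genes was called by edgeR (0% of all genes), 5 had an unadjusted p under 0.05, and DESeq2 called 3, beside 6.27%. Sprr1b (4.90, SE 1.59, adjusted p = 0.143), Sprr2h (4.54, SE 1.61, adjusted p = 0.165) and Ivl (2.63, SE 0.87, adjusted p = 0.146) had positive values, that is, a larger fold change of DKO against PKO than of WKO against WT. Sprr2a1 (-2.82, SE 1.20, adjusted p = 0.222) and Sprr2a2 (-2.86, SE 1.12, adjusted p = 0.189) had negative ones. Without the libraries against their labels Sprr1b and Sprr2h were called, beside 2.45% of all genes.

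The keratinocyte content of the libraries moved with these results. Of the 20 pan-epithelial genes 18 were called higher in WKO and 19 in DKO against WT, and none in PKO. PKO young 3, with the lowest Sprr1a and Flg of its group, had a pan-epithelial sum of 3528 CPM against 9275 and 15610 in PKO young 1 and 2, and 3864 CPM of T cell markers, the most of any library. Erythrocyte markers summed to 829 to 3495 CPM in WT and 2.54 to 12.5 in DKO. Their part in the results was not tested.

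As a percentage of the pan-epithelial sum, Sprr1a was 0.401, 0.217 and 0.150 in WT, 0.164, 0.293 and 0.174 in WKO, 0.625, 1.59 and 0.392 in PKO, and 2.52, 1.15 and 1.75 in DKO. On this scale the WKO libraries overlapped those of WT, and the DKO libraries still lay above all WT and WKO libraries. Flg was 0.189, 0.0665 and 0.0155% in WT, 0.0112, 0.0480 and 0.0451% in WKO, 0.125, 0.171 and 0.0122% in PKO, and 0.867, 0.128 and 0.0775% in DKO, so that WT young 1 lay above DKO young 2 and 3. The DKO libraries lay above those of WKO, and each knockout group overlapped WT. The 5 S100 fused type genes together also overlapped, at 0.227 to 0.470% in WT and 0.204 to 1.05% in DKO. Of the Sprr2a copies, Sprr2a1 (0 to 0.00652% in WT, 0.0139 to 0.0338% in DKO) and Sprr2a2 (0.00172 to 0.0130% and 0.0139 to 0.0306%) lay higher in all DKO than in all WT libraries. Both also lay higher in all PKO than in all WT libraries, at 0.0124 to 0.0199% and 0.0151 to 0.0471% in PKO. Sprr2a3 overlapped with WT in DKO and PKO, and all 3 overlapped between WKO and WT. The 6 single genes, which Ivl dominates, were 0.721 to 1.0% of the pan-epithelial sum in WT, 0.0645 to 0.149% in WKO, 0.123 to 0.274% in PKO and 0.174 to 0.385% in DKO, so on this scale they lay lower in each knockout genotype than in WT. All 47 genes came to 1.54 to 1.92% in WT, 0.293 to 0.625% in WKO, 0.872 to 2.33% in PKO and 1.71 to 4.25% in DKO.

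**Figure D5:**
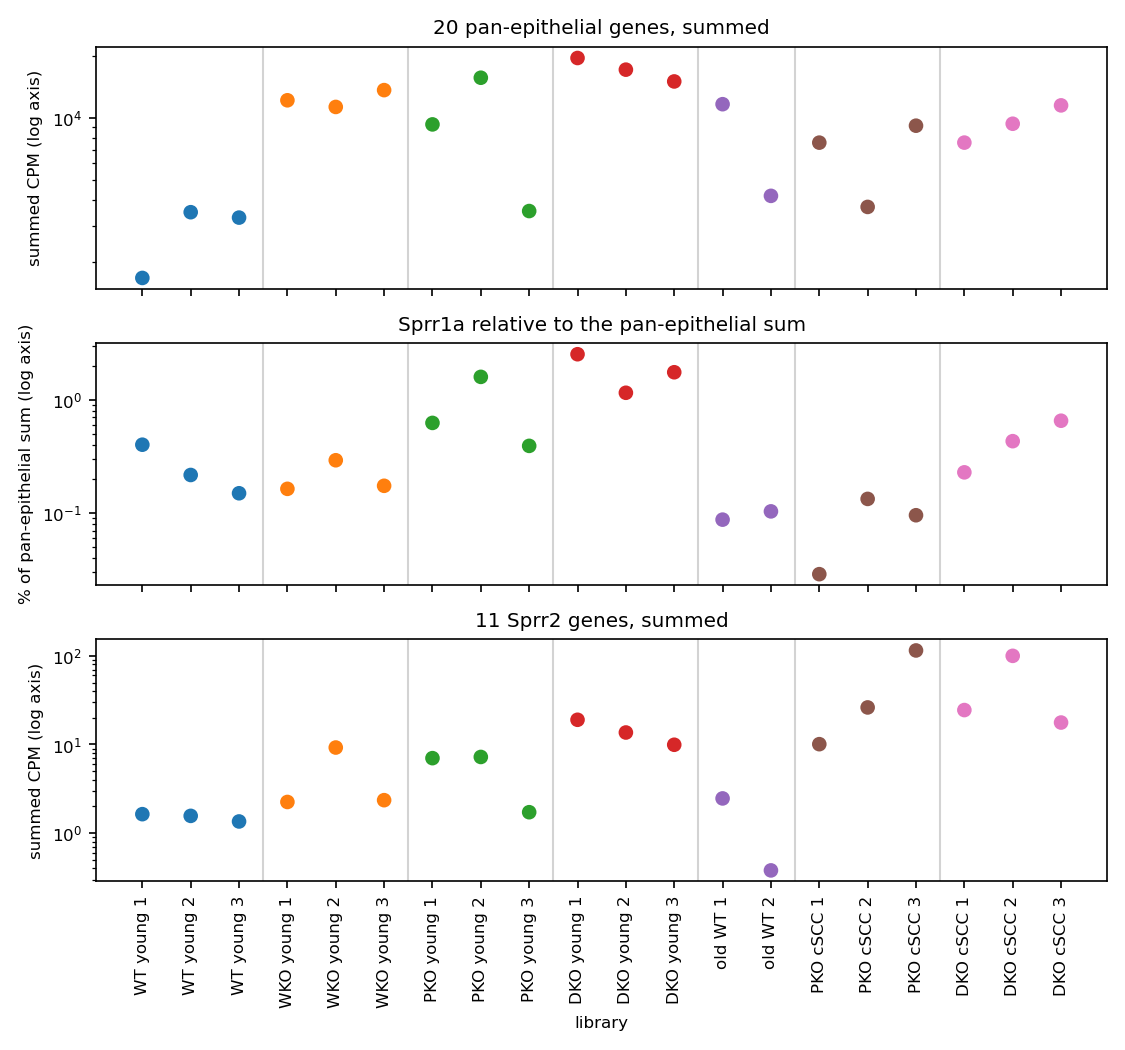
Per library and on log axes, the summed CPM of 20 pan-epithelial genes (top), Sprr1a as a percentage of that sum (middle) and the summed CPM of the 11 Sprr2 genes (bottom); colours mark the 7 groups. Sprr1a stands highest against the epithelial sum in DKO young and PKO young 2 and lowest in old WT and PKO cSCC, whereas the Sprr2 sum is highest in PKO cSCC 3 and DKO cSCC 2.

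Other genes of keratinocyte differentiation, taken as lists with earlier results of these data known, were called in larger shares. Over all genes 15.8% were called higher and 12.1% lower in DKO against WT, and 13.1% and 8.34% in WKO, and the shares below are read against these and against the pan-epithelial genes, of which 19 of 20 were higher in DKO. Of 12 early suprabasal genes 11 were higher in DKO against WT and 10 in WKO, among them Ptgs1 (log2 fold change 3.03, SE 0.46, adjusted p = 0.00614 in DKO), a cyclooxygenase, and Dsg1b (3.40, SE 0.56, adjusted p = 0.00617), a desmosomal cadherin. Of 24 cornification enzymes, inhibitors and envelope proteins outside the EDC, 18 were higher and 1 lower in DKO, and 12 were higher in WKO. Spink5, a protease inhibitor of the granular layer, rose from 9.27 ± 2.75 CPM (SD, n = 3) in WT to 282 ± 109 (n = 3) in DKO (4.92, SE 0.73, adjusted p = 0.00614), and Evpl, which encodes the scaffold protein envoplakin, from 102 ± 35.2 to 778 ± 128 (2.93, SE 0.50, adjusted p = 0.00634). The medians of these 2 lists in DKO against WT were 3.56 and 3.07, beside 2.56 for the envelope genes.

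Of 21 transcriptional regulators of keratinocyte differentiation, 16 were called higher and none lower in DKO against WT, led by Klf4 (2.77, SE 0.34, adjusted p = 0.00614), Pou2f3 (3.26, SE 0.53, adjusted p = 0.00614) and Ovol1 (5.24, SE 0.87, adjusted p = 0.00619), while 5 were not called. In WKO 9 of 21 were higher, and Prdm1, which encodes the repressor Blimp1, was lower (-3.34, SE 0.75, adjusted p = 0.0168). Of 9 AP-1 subunits 8 were higher in DKO and 1, Batf, lower, and 5 were higher in WKO. Fosl1 rose from 2.22 ± 1.49 CPM (SD, n = 3) in WT to 38.7 ± 3.11 (n = 3) in WKO (4.11, SE 1.04, adjusted p = 0.0235) and 346 ± 69.0 (n = 3) in DKO (7.27, SE 1.19, adjusted p = 0.00614). In PKO it was at 127 ± 163 (n = 3), between 9.61 and 313 CPM, with a log2 fold change that was not called (5.82, SE 1.12, adjusted p = 0.0539). It stood at 10.7 ± 1.53 in PKO cSCC and 9.37 ± 7.12 in DKO cSCC. Of 9 tested wound and stress genes 3 were higher and 2 lower in DKO: the wound keratin Krt16 (5.89, SE 1.15, adjusted p = 0.00803) and Krt17 (3.74, SE 0.49, adjusted p = 0.00614) were higher and S100a8 (-5.82, SE 1.34, adjusted p = 0.0132) and S100a9 (-6.85, SE 1.54, adjusted p = 0.0122) lower. Neutrophils also make S100a8 and S100a9 in large amounts, and Csf3r, the receptor that marks them, was lower in the same comparison (-6.81, SE 1.46, adjusted p = 0.0106). The 6 markers of macrophages and neutrophils, of which Csf3r and Cd68 were called lower, summed to 153 to 1059 CPM in WT and 9.53 to 98.1 in DKO, and their part in the S100a8 and S100a9 result was not tested. Of 17 tested other genes of the EDC, 5 were higher and 6 lower.

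In the carcinomas the summed level of the Sprr2 genes was 10.1, 26.2 and 115 CPM in PKO cSCC and 24.4, 99.9 and 17.7 in DKO cSCC, against 2.46 and 0.380 in old WT, 1.35 to 1.64 in WT young and at most 19 in any other young library. Sprr2d was at 0 counts in old WT and PKO young, and stood at 0.730, 0.870 and 12.3 CPM in PKO cSCC and 4.81, 9.51 and 0.268 in DKO cSCC. With the old WT group set to a floor of 3 counts in all, Sprr2d was at least 41.6-fold higher in PKO cSCC and at least 42.9-fold higher in DKO cSCC. Single libraries set these bounds: without PKO cSCC 3 the first fell to 6.83-fold, and without DKO cSCC 2 the second fell to 23.2-fold. Sprr2b was read only in cSCC, with 45 counts in PKO cSCC, 43 of them in PKO cSCC 3, and 36 in DKO cSCC, 32 of them in DKO cSCC 2. Lelp1, a short proline-rich relative, had 45 counts in PKO cSCC, 39 of them in PKO cSCC 3, and 1 in all epidermis libraries together.

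Against old WT, 0 of 21 tested envelope genes were called in PKO cSCC, beside 0.0121% of all genes, and 0 of 21 in DKO cSCC, beside 0%. At an unadjusted p under 0.05 there were 7 in PKO cSCC and 12 in DKO cSCC, all with positive fold changes, and DESeq2 called 5 and 7, beside 14.2% and 4.63% of all genes. The smallest p in PKO cSCC was that of Sprr1b, at 2.70, 2.84 and 37.2 CPM against 0.164 and 0.684 in old WT (5.13, SE 1.49, adjusted p = 0.0923). Sprr1a did not follow, at 2.19, 4.93 and 8.76 CPM in PKO cSCC against 10.2 and 4.33 in old WT (-0.37, SE 0.74, adjusted p = 0.775), nor did Ivl, whose fold change was 0.69 (SE 1.20, adjusted p = 0.735). In DKO cSCC Sprr1a stood at 17.3, 40.3 and 74.9 CPM (2.60, SE 0.82, adjusted p = 0.268), above both old WT libraries.

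With all 20 libraries in the fit, which estimates the spread from all groups, 5 envelope genes were called in PKO cSCC against old WT, beside 21.3% of all genes. They were Sprr2a1 (5.88, adjusted p = 0.0141), Sprr2a2 (5.18, adjusted p = 0.0199), Sprr2h (6.13, adjusted p = 0.0297), Sprr1b (5.03, adjusted p = 0.0359) and Sprr2d (9.09, adjusted p = 0.0447), and PKO cSCC 3 held the highest PKO cSCC level of each. In DKO cSCC only Sprr2a1 was called (5.45, adjusted p = 0.0491), beside 4.34%. The spread of old WT rests on 2 libraries whose pan-epithelial sums were 11620 and 4180 CPM, and the cSCC libraries lay between 3694 and 11468.

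Set beside young epidermis of the same genotype, Sprr1a was lower in cSCC. Its log2 fold change was -4.32 in PKO cSCC against PKO young (adjusted p = 0.00863; 2.19 to 8.76 CPM against 13.8 to 248) and -2.84 in DKO cSCC against DKO young (adjusted p = 0.0446; 17.3 to 74.9 CPM against 197 to 490.2), with no overlap of libraries in either. Sprr2d (9.09, adjusted p = 0.0288) and Sprr2h (4.86, adjusted p = 0.0365) were higher in PKO cSCC, the former against a group at 0 counts, so that its size is no estimate. The background was 11.5% of all genes called for PKO and 7.30% for DKO. Spinous keratinocyte markers summed to 83.4 to 1589 CPM in PKO cSCC against 1495 to 15756 in PKO young, and to 389 to 9349 in DKO cSCC against 13975 to 22532 in DKO young. Their part in the lower Sprr1a was not tested.

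Between the tumour genotypes, 0 of 21 envelope genes were called in DKO cSCC against PKO cSCC, beside 0.00605% of all genes. At an unadjusted p under 0.05 there were 7, all with positive fold changes, and DESeq2 called 2, beside 1.23%. The log2 fold change was 2.97 for Sprr1a (SE 0.71, adjusted p = 0.608) with all 3 DKO cSCC libraries above all 3 of PKO cSCC. The Sprr2a copies had fold changes of -0.50 to -0.10, and Sprr1b of 0.13 (SE 1.0, adjusted p = 0.981).

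The filaggrin-type genes of the tumours turned on the library labelled DKO cSCC 3. Flg stood at 13.6, 49.5 and 4773 CPM in DKO cSCC and 7.74, 4.29 and 55.2 in PKO cSCC, so that DKO cSCC 3 alone held 53470 of the 59237 Flg counts in the table. Flg2 was at 1.19, 1.24 and 115 CPM in DKO cSCC against 0, 0 and 0.749 in PKO cSCC, Hrnr at 0.889, 0.928 and 45 against 0.365, 0.0580 and 2.94, Lor at 1.11, 0.928 and 42.4 against 0, 0.232 and 0.288, and Rptn at 3.48, 3.33 and 44.0 against 0.219, 0.174 and 15.3. The fold change of Flg was 6.06 (SE 2.23, adjusted p = 0.608), and 0.43 (SE 1.10, adjusted p = 0.995) without that library. That of Lor was 6.20 with it and 2.41 (SE 1.14, adjusted p = 0.968) without it, and that of Flg2 7.08 and 2.16.

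The same library had 16.4 CPM of Lce1 genes, against at most 2.86 elsewhere, and the envelope genes came to 45.5% of its pan-epithelial sum, against at most 4.25% in the other 19. Its Sprr2 sum of 17.7 CPM was the lowest of the DKO cSCC libraries, and its Sprr2h of 0.714 CPM was below the 7.41 and 6.88 of the others. It also held 1272 CPM of sebaceous, 513 of melanocyte and 396 of endothelial and mural markers, against 113 to 209, 5.01 to 163 and 13.2 to 503 in the other 5 cSCC libraries. Their part in the result was not tested.

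The difference of the Wwox effect between cSCC and young epidermis without p53 was tested over all 20 libraries. None of 24 envelope genes was called by edgeR (0% of all genes), 5 had an unadjusted p under 0.05, and DESeq2 called 0. The Sprr genes had a median of -1.18 and the S100 fused type genes of 1.97, and the latter value rests on the library labelled DKO cSCC 3.

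Age was set apart from genotype by old against young WT. None of 18 envelope genes was called, beside 1.99% of all genes, 2 had an unadjusted p under 0.05, both with negative fold changes, and DESeq2 called 1, beside 11.4%. Crct1 had 0 counts in old WT and 27 in WT young, at least 4.49-fold lower with the same floor of 3 counts. Crnn was at 0.246 and 0.532 CPM in old WT and 1.80 to 3.54 in WT young (-2.81, SE 1.17, adjusted p = 0.183). Sprr1a (0.20, SE 0.86, adjusted p = 0.915), Flg (-0.39, SE 1.47, adjusted p = 0.903) and Ivl (-1.35, SE 0.67, adjusted p = 0.254) were not called, with 2 old libraries that differed in pan-epithelial sum.

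The 21 Lce genes, which encode the last proteins added to the envelope, were barely read. Only Lce1m passed the filter in young epidermis, with 1 to 4 counts in WT, 4 to 9 in WKO, 0 to 12 in PKO and 9 to 18 in DKO (2.70, SE 1.21, adjusted p = 0.119 for DKO against WT). It had 0 counts in all cSCC libraries but DKO cSCC 3. The Lce3 genes had at most 1.85 CPM in sum, in DKO cSCC 1, where Lce3c had 18 counts. Lce genes other than Lce1m and Lce6a share 13.2% to 60.3% of their 31-base stretches with another gene, so single members are uncertain. Smcp, a sperm mitochondrial protein that lies in the complex, and Sprr3, known from oral and oesophageal epithelium, had 1 count each in the 20 libraries.

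Across the 20 libraries some envelope genes varied together and others did not. On log2(CPM + 1), Sprr2a2 and Sprr2a1 had a Pearson r of 0.96 (0.96 over the 19 libraries without the one labelled DKO cSCC 3), a value between copies whose counts were split from shared reads. Flg2 and Lor had 0.91 (0.94). Sprr1a went with Lor (0.61, and 0.86 without that library) and Flg2 (0.74, and 0.80), and Sprr1b with Sprr2h (0.80, and 0.83), whereas Sprr2h had -0.09 with Lor (-0.05) and 0.05 with Sprr1a (0.07). Flg, Hrnr and Rptn joined no single set. Over the 19 libraries Flg had 0.82 with Sprr1b, 0.75 with Hrnr (0.90 over all 20), 0.71 with Sprr2a1 and 0.69 with Sprr2h, against 0.45 with Lor. Hrnr had 0.73 with Ivl, 0.72 with Lor, 0.72 with Sprr1a, 0.71 with Flg2 and 0.66 with Sprr1b. Rptn had 0.89 with Sprr2h (0.55 over all 20). These are descriptions over libraries that share group, keratinocyte content and depth.

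The genes outside the set whose levels were most like the mean of the 24 filtered envelope genes, among 10349 genes of at least 5 CPM, were Endou (Pearson r 0.84 over 20 libraries), Map7d1 (0.82), Cdsn (0.80), Aqp3 (0.80), Ddx54 (0.79), Eif3j1 (0.79), Ube2o (0.79) and Tgm1 (0.78). Cdsn encodes corneodesmosin, an adhesion protein of cornified cells, Aqp3 a water and glycerol channel of keratinocytes, and Tgm1 the transglutaminase that cross-links the envelope. Tgm1 itself was at 4.0 ± 0.92 CPM in WT young (SD, n = 3), 4.36 ± 0.33 (n = 3) in WKO and 16.8 ± 9.89 (n = 3) in DKO, where it was called against WT (2.06, SE 0.46, adjusted p = 0.0117).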

How the data were processed

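RNA of tdTomato-positive cells was sequenced from 20 samples that the labels call biological replicates of 7 groups, so p-values measure the spread between those samples. Per the labels, the input of the stranded total RNA kit was 5 ng a sample. The authors deposited estimated counts (expected counts), already whole numbers, for 51123 genes. Salmon 0.13.1, DESeq2 1.28.1, Trim Galore 0.4.1 and the build mm39 are listed in the submitters' processing notes. How transcripts were summed to genes is not stated there, and reads of near-identical copies were split by estimation.

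Symbols, exon lengths and gene order came from GENCODE vM21 (GRCm38; 48246 identifiers had a symbol), promoters from RefSeq. The envelope genes, the gene lists and the tests were chosen with earlier results of these data known. Tests used edgeR 4.0.16 in R 4.3.3 after TMM scaling (trimmed mean of M-values) and filterByExpr: a quasi-likelihood F test whose p-values were adjusted over all genes by Benjamini-Hochberg, with genes called at 0.05. Young comparisons shared a fit of 12 libraries, tumour comparisons a fit of 8, old against young WT a fit of 14, and the last interaction a fit of all 20. edgeR, DESeq2 and voom were run on simulated counts for each comparison. No change put into them was called in the wrong direction, DESeq2 called more unchanged genes than its threshold allows, and edgeR and voom missed most of the smaller changes in the tumour fit. Changes were put only into genes of higher mean level than most envelope genes have, so the simulation does not speak for the low ones. The replicate block, RLE scaling and the fit without the low-count filter were not simulated. CPM are after TMM scaling of all 20 libraries.

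The rule was to name in every library the 12 envelope genes of highest mean, with fold changes for called genes or else Sprr1a, Flg and Ivl. Up to 3 genes of each list were named by p. Not all values under this rule are printed. Genes named beyond this rule were chosen after their values were seen. Alternatives were relative log expression (RLE) scaling, no low-count filter, DESeq2 1.42.0, limma 3.58.1 voom with quality weights, a replicate block, all 20 libraries in each fit, young epidermis of the same genotype as tumour control, removal of libraries against their labels, and each library left out in turn. The mean levels without DKO cSCC 3 and the bounds on Sprr2d without single libraries were added after seeing the data.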

Additional observations from a re-analysis of the deposited data

How the results depend on the processing

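Of 139 recomputed counts of called envelope genes 105 kept within 1.5 times the reported count and 34 did not. Of 426 recomputed fold changes 367 kept direction and call, 15 gained and 21 lost a call, and 23 changed sign. Without the low-count filter the calls were 3 in PKO against WT young (beside 2.88% of all genes), 5 in DKO cSCC against PKO cSCC (1.13%), 8 in PKO cSCC against old WT (6.92%) and 10 in DKO cSCC against old WT (2.58%). DESeq2 called 5 of 23 tested in WKO (beside 24.2%), 3 of 20 in PKO and 9 of 23 in DKO (27.5%) against WT young, 3 in the young interaction, 2 in DKO against PKO cSCC, 5 in PKO and 7 in DKO cSCC against old WT, and 1 in old against young WT, and voom 6 in WKO (beside 43.9%), 3 in PKO and 10 in DKO (40.6%) against WT young. Without the libraries against their labels there were 5, 4 and 12 in WKO, PKO and DKO and 2 in the young interaction. With all 20 libraries in the fit there were, of 24 tested, 0 in WKO (beside 12.1%), 3 in DKO (17.3%), 5 in PKO cSCC and 1 in DKO cSCC against old WT, and with young epidermis of the same genotype as control 3 and 1. No filter and DESeq2 moved the median of all genes by over 0.1 on the log2 scale in some comparisons.

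With single libraries left out, the calls ranged from 0 to 2 in WKO, 0 to 3 in PKO and 3 to 5 in DKO against WT young and from 0 to 4 in DKO against PKO young, and were 0 in the other 6 comparisons. Fold changes whose sign turned with a single library had these ranges: in the young interaction -0.98 to 1.13 for Sprr1a and -0.73 to 2.38 for Flg; in DKO against PKO cSCC -0.56 to 2.56 for Ivl; in PKO cSCC against old WT -0.95 to 0.43 for Sprr1a and -0.96 to 1.20 for Ivl; in old against young WT -0.56 to 0.69 for Sprr1a and -0.90 to 0.13 for Flg; in the interaction of cSCC with young epidermis -0.088 to 2.05 for Sprr1a, -1.90 to 5.78 for Flg and -2.02 to 1.10 for Ivl.

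Replicate numbers showed no steady pairing of the samples: in no comparison was every correlation of same-numbered deviations over 0.1, and 0 to 4 of 6 libraries correlated best with their own number. In DKO against PKO young the correlations were 0.41, -0.10 and 0.27. So few pairs cannot exclude a pairing. The replicate block gave 2 calls in WKO and 4 in DKO against WT young (Sprr2a3 was lost at an adjusted p of 0.109) and 0 elsewhere. With the block the sign changed for Sprr1a in the young interaction (0.061) and in old against young WT (-0.032), and for Ivl in PKO cSCC against old WT (-1.03).

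Other settings that changed a sign were these, and the cause was not tested. Without the libraries against their labels, Sprr1a was 0.56 in the young interaction, Ivl -0.56 in DKO against PKO cSCC, and Flg -2.58 and Sprr1a -0.16 in the interaction of cSCC with young epidermis. With voom, Flg was 0.056 in old against young WT and -0.68 in that interaction. With young epidermis of the same genotype, the control itself was replaced, so these values belong to another comparison than that with old WT. Against it, Ivl was -0.024 in PKO cSCC and -0.53 in DKO cSCC, and Sprr1a -2.84 in DKO cSCC. Depth limits the Lce genes, Sprr2b, Lelp1, Smcp and Sprr3, most of which had too few counts to test.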
